A study of Mus musculus with 16 samples.

Results

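Genes of the cell cycle and of DNA replication were followed in the soleus, a calf muscle with many slow fibres, of male mice during a gradual lowering of oxygen. The set holds 34 of the 20972 genes named on the array, listed for their function. Of these, 23 act in mitosis and 11 in the entry into or the course of DNA synthesis. A gene was measured by the probes annotated to one of its transcripts, and the brightest of them stood for the gene. Samples were taken at day 0 (4 RNA samples on 6 arrays), day 3 (3 RNA samples), day 7 (3 RNA samples) and day 14 (4 RNA samples). Oxygen was brought down to 10% by the end of week 1 and then held, so day 14 closes the week at a steady level. The labels name no genetic change and no drug for any group, and give neither strain nor age. Whether every RNA sample stands for a separate mouse is not given, so the p-values measure the spread between these RNA samples.

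Cells that divide first load the MCM helicase onto DNA, then copy the DNA with the help of the sliding clamp Pcna and of deoxynucleotides made by ribonucleotide reductase and thymidylate synthase. Mitosis follows under cyclins A and B with Cdk1, the Polo-like and Aurora kinases, and a spindle of motor and microtubule proteins, until Cdc20 and Ube2c have the anaphase-promoting complex destroy the cyclins. The nuclei of muscle fibres do not divide, and cells known to divide in muscle are satellite cells and myoblasts, macrophages, fibroblasts and endothelial cells. In RNA from whole muscle, fewer dividing cells and less of these RNAs per dividing cell cannot be told apart.

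A level is the log2 brightness of a probe after subtraction of the 75th percentile of its array, so that 0 marks that percentile, and levels are compared only for the same probe. The arrays lie on 2 slides. Slide 1 carries day 3, day 7 and day 0 RNA samples 1 and 2, and slide 2 carries day 14 and all 4 day 0 RNA samples. Slide 1 was brighter, with a 75th percentile of 203 to 271 intensity units against 49.1 to 77.0 on slide 2, and 48.3 to 55.3% of its spots were well above background, against 37.9 to 42.9%. The slow fibre myosin Myh7 was at a level of 10.2 to 10.8 on all 16 arrays. The fast myosin Myh4 ranged from 2.60 to 9.83, and at day 3 it was 9.27, 9.60 and 9.29.

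Many of the cell cycle genes lay close to background. Of the 34 genes, 9 were well above background on all 16 arrays: Mcm3, Mcm4, Mcm6, Mcm7, Pcna, Rrm1, Rrm2, Hmmr and Mki67. At the other end, the brightest probe was above background on no array for 4: Ccne2, Cenpf, Cdk1 and Aurkb. The filter kept probes above background on at least 3 arrays. It passed 24 of the 34 genes, 10 of the DNA synthesis genes and 14 of the mitotic ones. Tests were fitted across all 22145 features that passed, and a gene passed the threshold at an adjusted p under 0.05. A gene that passed the filter only through 1 group had to differ there, so the 24 genes do not stand for all 34.

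Promoters of such genes are known for a few short motifs. Genes of mitosis often carry a cell cycle genes homology region (CHR), with CCAAT boxes bound by NF-Y, and genes of DNA synthesis often carry E2F sites. RefSeq promoters (GRCm38.p6, 250 bases before to 50 after the start) were found for 28 of the 34 genes, in 30 entries. On either strand, TTTGAA or TTCGAA, taken here as the CHR, was found in 16 of 20 promoters of mitotic genes (80%), in 2 of 10 promoters of DNA synthesis genes (20%) and in 19.2% of all 32851 promoters. An E2F form (TTTCGCGC, TTTGGCGC, TTTCCCGC or TTTGGCGG) was found in 5% of the mitotic promoters, 40% of the DNA synthesis promoters and 2.37% of all. CCAAT was found in 90% of both groups and in 37.4% of all promoters. These are matches of letters and not sites shown to be bound. The promoters printed here belong to the 6 of the 8 genes described in most detail that have an entry, and to Mcm6 as the one with 3 E2F matches. Capitals mark the motifs on either strand, and matches may overlap, as a CHR and a CCAAT box do in Cdca8. Mki67 lies at chr7:135716330-135716629 (minus strand), Cdc20 at chr4:118437294-118437593 (minus), Cdca8 at chr4:124936868-124937167 (minus), Ccnb1 at chr13:100786437-100786736 (minus), Pcna at chr2:132253131-132253430 (minus), Rrm1 at chr7:102441445-102441744 (plus) and Mcm6 at chr1:128359656-128359955 (minus).
Mki67: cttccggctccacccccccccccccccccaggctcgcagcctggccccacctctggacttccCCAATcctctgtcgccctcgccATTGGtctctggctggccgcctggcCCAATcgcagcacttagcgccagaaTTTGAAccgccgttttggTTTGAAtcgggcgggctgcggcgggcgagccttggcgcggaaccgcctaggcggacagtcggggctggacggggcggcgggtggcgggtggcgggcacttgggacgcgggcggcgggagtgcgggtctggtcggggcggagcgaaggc
Cdc20: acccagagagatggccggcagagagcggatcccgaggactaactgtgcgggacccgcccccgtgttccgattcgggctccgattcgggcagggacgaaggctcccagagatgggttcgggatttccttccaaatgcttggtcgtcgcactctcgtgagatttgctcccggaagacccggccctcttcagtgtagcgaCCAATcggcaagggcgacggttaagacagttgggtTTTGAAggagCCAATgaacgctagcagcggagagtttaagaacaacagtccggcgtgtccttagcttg
Cdca8: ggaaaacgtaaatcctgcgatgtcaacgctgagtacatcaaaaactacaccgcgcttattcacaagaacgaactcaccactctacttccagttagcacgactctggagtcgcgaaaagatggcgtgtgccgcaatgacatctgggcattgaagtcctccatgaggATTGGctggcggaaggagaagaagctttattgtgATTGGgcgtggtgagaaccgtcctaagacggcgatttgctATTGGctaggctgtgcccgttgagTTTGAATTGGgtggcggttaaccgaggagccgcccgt
Ccnb1: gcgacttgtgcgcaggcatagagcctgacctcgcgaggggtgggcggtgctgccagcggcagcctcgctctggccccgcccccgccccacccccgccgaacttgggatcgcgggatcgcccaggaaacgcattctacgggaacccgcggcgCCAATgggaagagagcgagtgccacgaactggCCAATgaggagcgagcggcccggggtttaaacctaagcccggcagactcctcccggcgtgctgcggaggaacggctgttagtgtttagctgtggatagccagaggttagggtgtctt
Pcna: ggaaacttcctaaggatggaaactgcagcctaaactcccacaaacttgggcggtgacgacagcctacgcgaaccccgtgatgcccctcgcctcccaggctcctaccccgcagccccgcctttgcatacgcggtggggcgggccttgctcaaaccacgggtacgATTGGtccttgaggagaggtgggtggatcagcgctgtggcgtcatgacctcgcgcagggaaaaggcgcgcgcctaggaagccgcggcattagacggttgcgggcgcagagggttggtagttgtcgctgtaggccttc
Rrm1: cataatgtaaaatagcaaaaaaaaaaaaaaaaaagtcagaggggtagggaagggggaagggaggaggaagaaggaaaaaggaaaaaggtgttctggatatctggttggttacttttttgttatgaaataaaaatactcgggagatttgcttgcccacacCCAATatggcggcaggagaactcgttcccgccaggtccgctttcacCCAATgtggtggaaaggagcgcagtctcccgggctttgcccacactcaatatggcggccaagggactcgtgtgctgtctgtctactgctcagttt
Mcm6: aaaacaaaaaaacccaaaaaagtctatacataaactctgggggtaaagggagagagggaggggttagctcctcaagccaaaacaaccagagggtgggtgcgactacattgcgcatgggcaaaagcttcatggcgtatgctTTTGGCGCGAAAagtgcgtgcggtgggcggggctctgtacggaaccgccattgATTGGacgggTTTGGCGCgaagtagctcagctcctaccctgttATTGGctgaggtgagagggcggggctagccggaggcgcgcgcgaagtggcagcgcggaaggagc
Mki67, Cdc20 and Cdca8 carry one of the searched CHR forms in this window, whereas Ccnb1 carries CCAAT boxes and neither of those CHR forms. Pcna and Rrm1 carry none of the searched CHR or E2F forms. Other forms of these motifs were not searched, so a gene without a match may still carry one.

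Day 3 RNA sample 4 stood apart from the other day 3 samples in most of the mitotic genes. It was the highest of the 8 arrays of slide 1 for 17 of the 24 genes that passed the filter, against 10.3% of all features. For 11 of these 24 genes it lay over 2 log2 units above the mean of day 3 RNA samples 1 and 2, against 0.515% of all features (114 of 22145). Over all 34 genes the number was 16, all of them mitotic. Each result that includes day 3 is therefore also given without this sample.

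**Figure D1:**
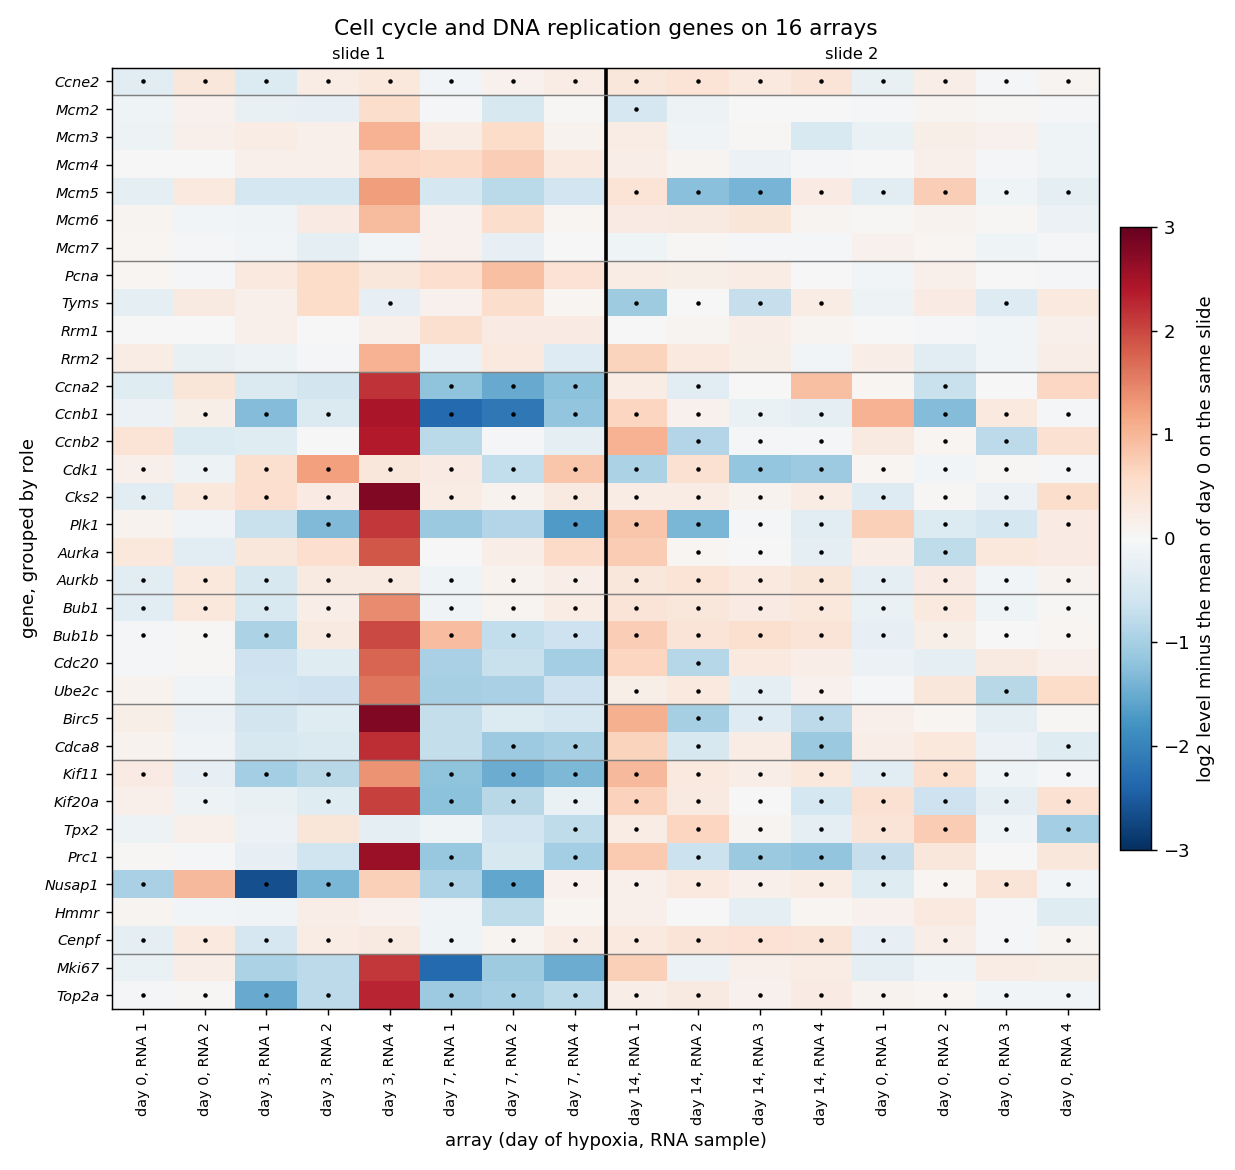
Level of the 34 genes (rows, grouped by role from the S phase cyclin at the top to chromosome proteins at the bottom) on each array (columns), as the log2 difference from the mean of the day 0 arrays of the same slide, where red is higher, blue is lower and a black dot marks a probe not well above background. Day 3 RNA sample 4 is red over most mitotic rows, the day 7 columns are blue over many of them, and the rows of Mcm7 and Rrm1 are pale throughout.

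The mitotic cyclins and kinases show the size of that gap. Ccnb1 (cyclin B1, which activates Cdk1) was at −0.90 in RNA sample 4, against −4.65 and −3.80 in RNA samples 1 and 2, and only sample 4 was above background. Plk1, the Polo-like kinase, was at 0.25, against −2.52 and −3.19. Ccna2 (cyclin A2) was at −0.26, against −2.87 and −2.99. Ccnb2 (cyclin B2) stood 5.91-fold above the mean of the other samples, and Aurka, the spindle pole kinase, 2.73-fold above.

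The gap recurred in the genes of the spindle and of the chromosomes. Birc5 (survivin, of the chromosomal passenger complex) was at 0.97 in RNA sample 4, against −2.35 and −2.17 in RNA samples 1 and 2. Its partner Cdca8 (borealin) was at 0.16, against −2.53 and −2.49. Prc1, which bundles microtubules of the spindle midzone, was at 0.41, against −2.44 and −2.78. Mki67, the proliferation marker that coats mitotic chromosomes, was at 1.02, against −2.03 and −1.86, and its second probe differed by 3.19 where the first differed by 2.97. In these genes sample 4 also lay above every day 0 and day 7 array of slide 1. Not all mitotic genes showed the gap. Hmmr, which binds spindle microtubules and was above background on all arrays, was at 0.05, against −0.19 and 0.11, and the brightest probe of Tpx2, another spindle protein, was at −2.82, against −2.74 and −2.19.

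Another 5 genes were above background on no array but that of day 3 RNA sample 4. These are Bub1 and Bub1b (kinases of the spindle checkpoint), Kif11 (a spindle motor), Top2a (the topoisomerase that untangles chromosomes) and Cks2 (a subunit of Cdk complexes). Top2a was at −2.21 there, against −6.01 and −5.28 in RNA samples 1 and 2, which lie in the background. Nusap1, a spindle protein, was above background there, at −2.65, and on 1 day 0 array of slide 1, at −2.41.

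The genes of DNA synthesis differed less in the same sample. The MCM subunits stood 0.81 above the other day 3 samples in the median, from 0.11 for Mcm7 to 1.77 for Mcm5, and all 6 lay above both other samples. Rrm2, the regulated subunit of ribonucleotide reductase, was at 0.84, against −0.34 and −0.23. Pcna was at 2.34, against 2.28 and 2.53, Rrm1 at 1.40, against 1.41 and 1.28, and Tyms, thymidylate synthase, at −3.06, against −2.68 and −2.28.

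Markers of other cells moved in the same sample. Of 16 macrophage markers that passed the filter, 13 were highest of slide 1 in day 3 RNA sample 4, and their summed level was 129 times the 75th percentile, against 93.3 and 72.9 in RNA samples 1 and 2. Ccr2 was at 0.30 there, against −1.96 and −2.31, while Cd68, Cd163 and Timd4 did not pass the filter. The fusion and differentiation genes Mymk (0.60, against −2.48 and −1.83), Myog (1.91, against −0.29 and −0.27) and embryonic myosin Myh3 (4.24, against 1.67 and 2.01) were also higher. Pax7, the satellite cell factor, was at −1.21, against −0.88 and −0.58. The summed level of the satellite cell and myoblast markers, which the brightest genes dominate, was lower in this sample, at 1756, against 2085 and 2148. Their mean log2 level was instead higher, at 1.68, against 1.13 and 1.35 in RNA samples 1 and 2. In this sample 9 of the 15 markers lay above both other day 3 samples. Of these markers 4 of 15 were highest of slide 1 in this sample, where 10.3% of all features were. The fibroblast gene Postn was at 5.45, against 2.31 and 2.03, with 4 of 14 fibroblast markers highest there. None of 6 neutrophil or 11 erythroid markers, 1 of 9 lymphocyte markers and 1 of 19 endothelial markers were. The part of these cells in the cell cycle result was not tested.

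**Figure D2:**
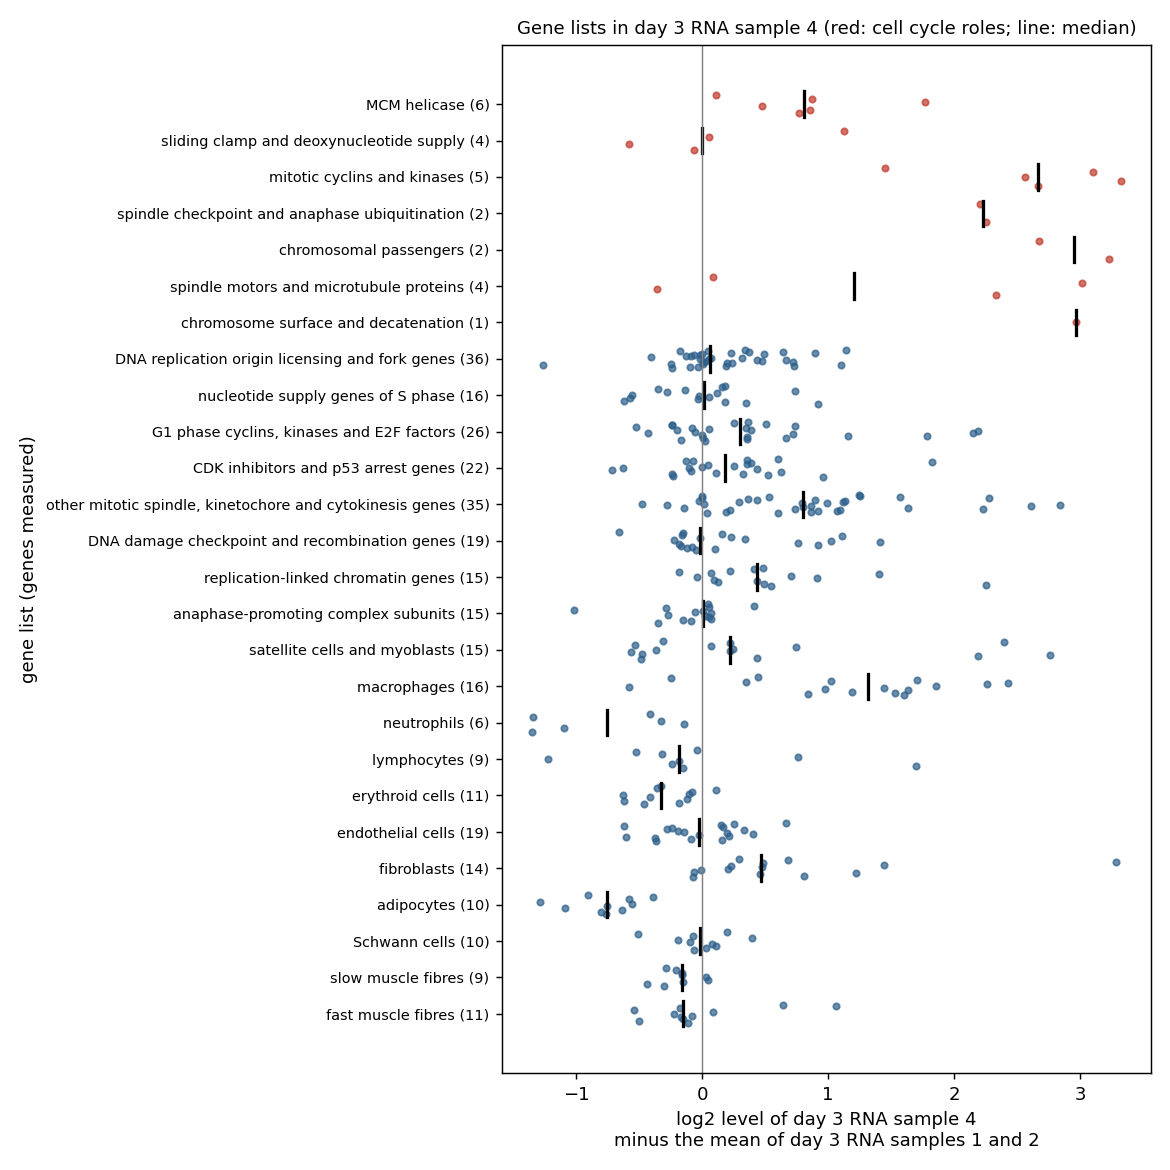
Log2 level of day 3 RNA sample 4 minus the mean of day 3 RNA samples 1 and 2 (horizontal axis) for each measured gene (points) of the cell cycle roles (red) and of other lists (blue), with the median of each list as a black line and the number of genes in brackets. The medians of the mitotic roles lie between 1.21 and 2.97, that of the macrophage markers at 1.32, and those of the endothelial and Schwann cell markers near 0.

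Day 3 was compared with day 0 to see the early response to falling oxygen. No cell cycle gene passed the threshold (limma, adjusted over all features), where 6.09% of all features did in either direction, and 1 of the 24 genes had an unadjusted p under 0.05, against 25.2% of all features. The fitted differences were above 0 in 23 of the 24 genes, with a median of 0.25 against 0.06 over all features. Without RNA sample 4, only 9 of the 24 were above 0 and the median was −0.19, with 0.09 over all features. Among the genes that ranked first in the F-test over all days, Mki67 differed by 0.04 ± 0.66 (SE, adjusted p = 0.977) with all samples and by −0.95 ± 0.35 (adjusted p = 0.105) without sample 4. For Pcna the difference was 0.41 ± 0.15 (adjusted p = 0.105), and 0.43 ± 0.16 (adjusted p = 0.116) without it.

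At day 7, 3 genes of DNA synthesis were higher than at day 0 and passed the threshold: Pcna, the sliding clamp of the replication fork, Mcm4, a subunit of the replicative helicase, and Rrm1, the large subunit of ribonucleotide reductase. Over all features 15.6% were called higher and 8.15% lower, so 3 of 24 genes is near the background. No cell cycle gene was called lower with all samples, whereas 16 of the 24 differences were below 0, with a median of −0.26 against 0.09 over all features. An unadjusted p under 0.05 was found for 6 of the 24, against 36.5% of all features.

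On slide 1, Pcna was at 2.05 and 1.94 at day 0, at 2.28, 2.53 and 2.34 at day 3 and at 2.50, 2.90 and 2.42 at day 7. On slide 2 it was at 2.64, 2.59, 2.64 and 2.42 at day 14, against 2.33, 2.57, 2.42 and 2.36 at day 0. The day 7 arrays all lay above the day 0 arrays of slide 1, and on slide 2 the groups overlapped. Pcna rose by 0.63 ± 0.15 at day 7 (SE, 1.55-fold, limma, adjusted p = 0.00925), and it was the one member past the threshold of the F-test over all days (adjusted p = 0.0431), where 17.0% of all features passed. The call ended without day 0 RNA sample 2 (0.54, adjusted p = 0.107), within slide 1 alone (0.62, adjusted p = 0.0614) and with no slide term (0.34, adjusted p = 0.106). The same day 0 RNA gave levels 0.28 and 0.63 lower on slide 1 than on slide 2, and without the slide 1 arrays of day 0 the difference was 0.19 (adjusted p = 0.317).

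Mcm4 was at 0.49 and 0.53 at day 0, at 0.65, 0.66 and 1.13 at day 3 and at 1.08, 1.25 and 0.80 at day 7 on slide 1. On slide 2 it was at 0.95, 0.83, 0.58 and 0.69 at day 14, against 0.77, 0.90, 0.71 and 0.63 at day 0. Days 7 and 0 did not overlap on slide 1, and days 14 and 0 did on slide 2. Mcm4 rose by 0.57 ± 0.17 at day 7 (1.49-fold, adjusted p = 0.0244). This call also ended within slide 1 (0.54, adjusted p = 0.107), and without day 0 RNA sample 1 (0.58, adjusted p = 0.102) or 2 (0.59, adjusted p = 0.135) and without day 7 RNA sample 1 (0.56, adjusted p = 0.0657) or 2 (0.47, adjusted p = 0.0967). Without the slide 1 arrays of day 0 the difference was 0.29 (adjusted p = 0.194), and with no slide term 0.37 (adjusted p = 0.0771).

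Rrm1 was at 1.27 and 1.24 at day 0, at 1.41, 1.28 and 1.40 at day 3 and at 1.72, 1.51 and 1.50 at day 7 on slide 1, and at 1.33, 1.40, 1.50 and 1.40 at day 14, against 1.30, 1.25, 1.23 and 1.45 at day 0 on slide 2. Its day 7 arrays lay above all day 0 and day 3 arrays of slide 1. It rose by 0.31 ± 0.10 at day 7 (1.24-fold, adjusted p = 0.0477), a call close to the threshold. It ended in 17 of 24 other settings, with differences of 0.23 to 0.34 and adjusted p of 0.0523 to 0.234, the highest without day 0 RNA sample 2. The same RNA differed by only −0.02 and −0.01 between the slides.

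The other helicase subunits and nucleotide genes did not pass at day 7. Mcm3 and Mcm6 differed by 0.29 ± 0.25 and 0.27 ± 0.23, Mcm7 by 0.00 ± 0.12, and Mcm2 and Mcm5 by −0.17 ± 0.22 and −0.54 ± 0.58. The median over the 6 subunits was 0.14, with 4 above 0. Tyms differed by 0.26 ± 0.34 and Rrm2 by −0.11 ± 0.31. For Mcm7, which was above background on all arrays, the 95% interval of the difference ran from −0.26 to 0.27. Ccne2, the cyclin of S phase entry, was above background on no array, so no day could be compared.

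**Figure D3:**
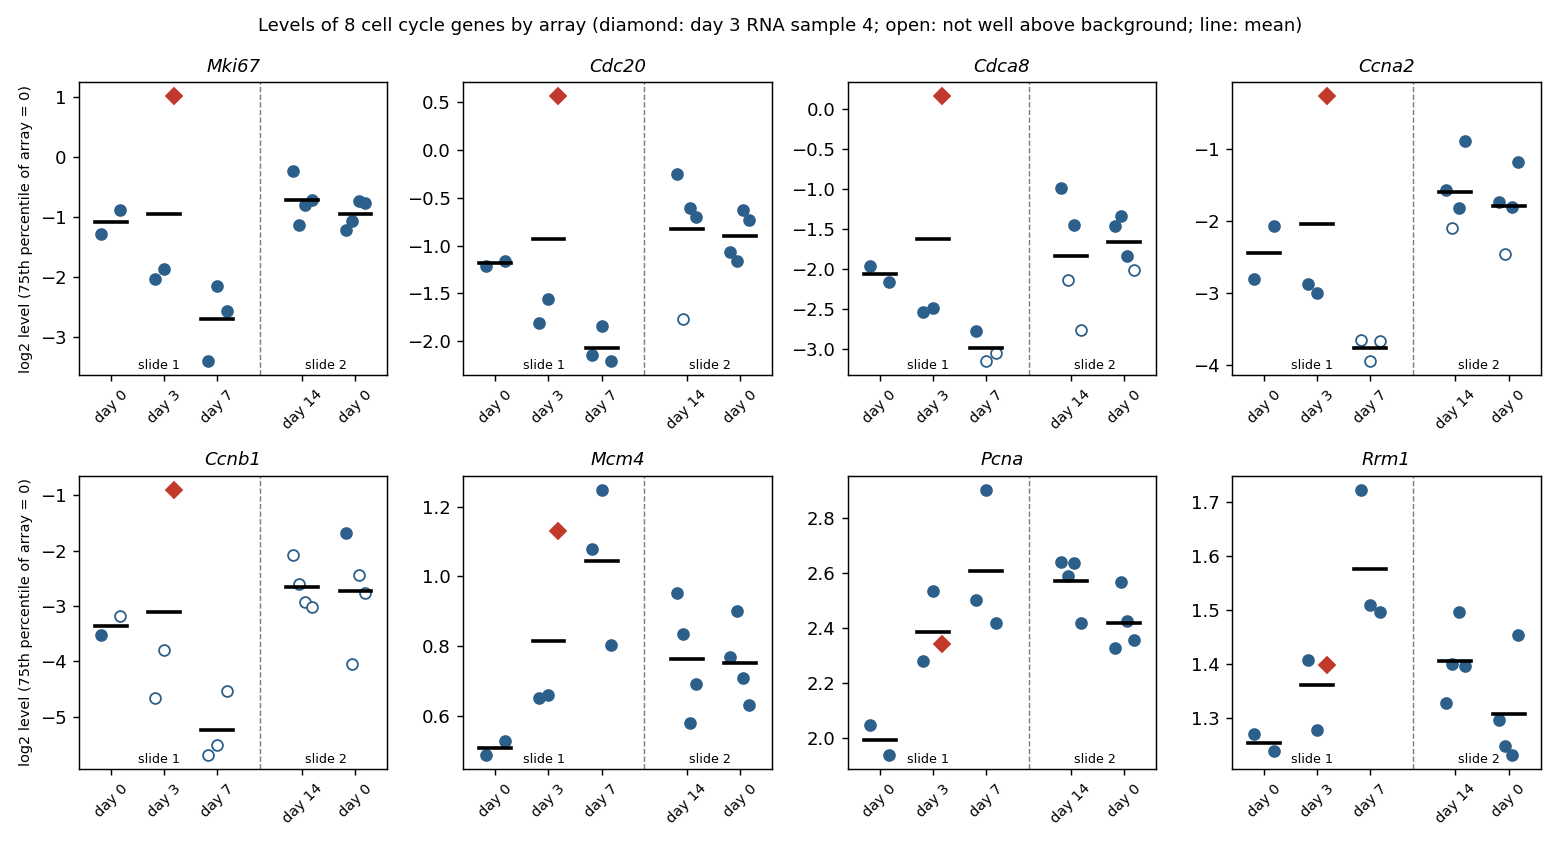
Log2 level (vertical axis, 0 is the 75th percentile of the array) of 8 genes on each array by day, with slide 1 (days 0, 3 and 7) left of the dashed line and slide 2 (day 14, day 0) right of it. Points are arrays, filled where well above background, the red diamond is day 3 RNA sample 4 and black lines are means. In Mki67, Cdc20, Cdca8, Ccna2 and Ccnb1 the diamond stands above all other slide 1 arrays and day 7 lies below day 0, and in Mcm4, Pcna and Rrm1 day 7 lies above day 0 on slide 1.

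Of the 14 mitotic genes that passed the filter, 13 had a day 7 difference below 0, and of the 10 DNA synthesis genes 7 had one above 0. On slide 1 all day 7 arrays lay below both day 0 arrays in 11 of the 24 genes, against 21.6% of all features: Ccna2, Ccnb1, Plk1, Cdc20, Ube2c, Birc5, Cdca8, Kif20a, Prc1, Mki67 and Mcm5. They lay above both in 3 genes, Pcna, Mcm4 and Rrm1, against 33.5% of all features. None of the 11 passed the threshold in the fit with all samples and the slide as a term. The counts of lower genes include Ccna2, Ccnb1 and Kif20a, which were above background on no day 7 array. They passed the filter through other days only, which favours a low day 7. Ccnb1 and Kif20a passed on 3 arrays each, among them day 3 RNA sample 4, and would not have passed without it. Leaving out day 3 RNA sample 4 left the day 7 differences as they were and lowered the shared estimate of the spread. In that fit 4 of the 24 genes were called lower (Mki67, Ccna2, Ccnb1 and Cdc20), against 9.07% of all features. That sample was set aside for its high levels in these same genes, so their narrower spread follows from the choice. The lower calls made without it are thus not further evidence of a fall. The 3 higher genes passed without that sample too, against 17.1% of all features.

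Mki67 was at −1.29 and −0.88 at day 0, at −2.03, −1.86 and 1.02 at day 3 and at −3.41, −2.15 and −2.56 at day 7 on slide 1. All 3 day 7 arrays lay below every other array of both slides, and all were above background. The fitted difference from day 0 at day 7 was −1.71 ± 0.66 (SE, 3.27-fold lower, adjusted p = 0.0761) with all samples, and −1.71 ± 0.32 (adjusted p = 0.00389) without day 3 RNA sample 4. With all samples it also passed with no slide term (−1.70, adjusted p = 0.0354) and when every array had to be above background (−1.73, adjusted p = 0.0311). It passed in no other setting, among them normexp, quantile normalization, the deposited table, slide 1 alone, day 0 from slide 2 alone and every other leave-out. Its second probe gave −1.48 within slide 1, where the first gave −1.62. The same day 0 RNA differed by −0.07 and 0.18 between the slides.

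Cdc20, which activates the anaphase-promoting complex in mitosis, was at −1.21 and −1.16 at day 0, at −1.81, −1.56 and 0.57 at day 3 and at −2.15, −1.85 and −2.22 at day 7 on slide 1. It was above background on all of these arrays. The difference was −0.98 ± 0.54 at day 7 (adjusted p = 0.212) with all samples and −0.98 ± 0.33 (adjusted p = 0.0424) without day 3 RNA sample 4. Ube2c, the ubiquitin-conjugating enzyme of the same complex, differed by −0.80 ± 0.53 (adjusted p = 0.3).

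For cyclins A2 and B1 the day 7 levels have only an upper bound. Ccna2 was above background on none of the day 7 arrays, at −3.65, −3.95 and −3.67, on all day 3 arrays, and on both day 0 arrays of slide 1, at −2.81 and −2.07. Within slide 1 it was at least 2.06-fold lower at day 7 than at day 0, with measured means of −3.75 at day 7 and −2.44 at day 0. The fit gave −1.45 ± 0.65 (adjusted p = 0.123) with all samples and −1.45 ± 0.39 (adjusted p = 0.0187) without day 3 RNA sample 4. With no slide term it passed too (−1.71, adjusted p = 0.0331), and also with day 0 taken from slide 2 alone (−1.96, adjusted p = 0.0295). Ccnb1 was likewise in the background on all day 7 arrays, with a mean of −5.24 against −3.35 at day 0. Only 1 of the 2 day 0 arrays of slide 1 was above background, so no fold is given. Its fit gave −1.95 ± 0.88 (adjusted p = 0.126) with all samples and −1.95 ± 0.61 (adjusted p = 0.0338) without that sample, and it passed with no slide term (−2.28, adjusted p = 0.0312) and with day 0 taken from slide 2 alone (−2.51, adjusted p = 0.0375). Neither cyclin passed within slide 1 alone. The same day 0 RNA differed between the slides by −1.06 and 0.39 for Ccna2 and by −1.84 and 0.85 for Ccnb1, with some of these values in the background. Within slide 1 the further probes of Ccnb1 gave −0.51 and −0.09 for day 7 minus day 0, where the brightest gave −1.89. Those further probes were above background on 0 and 1 arrays. The settings with no slide term or with day 0 from slide 2 set background values of slide 1 against slide 2, where background lies higher. In day 0 RNA sample 1 the lowest spot was at −6.25 on slide 1 and −4.81 on slide 2, and Ccnb1 was at −5.69 in day 7 RNA sample 1. The calls of both cyclins in these settings are thus not further evidence of a fall. Kif20a, a kinesin of the spindle midzone, was also in the background at day 7 and above it on 1 of the 2 day 0 arrays of slide 1, with measured means of −3.94 at day 7 and −3.19 at day 0 (adjusted p = 0.37).

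Cdca8 was at −1.96 and −2.16 at day 0, at −2.53, −2.49 and 0.16 at day 3 and at −2.77, −3.16 and −3.05 at day 7 on slide 1, with 1 of the 3 day 7 arrays above background. The difference at day 7 was −0.82 ± 0.64 (adjusted p = 0.392), and −0.82 ± 0.38 (adjusted p = 0.138) without day 3 RNA sample 4. Its passenger partner Birc5 differed by −0.49 ± 0.76 and Prc1 by −0.96 ± 0.76. Plk1 differed by −1.17 ± 0.79. Aurka, Hmmr and Tpx2, which act on spindle microtubules, differed by 0.12 ± 0.42, −0.18 ± 0.23 and −0.23 ± 0.40.

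Macrophage markers were lower in the same samples. At day 7 all 16 measured markers were below day 0, with a median of −0.60, and 6 fell, where 8.15% of all features were called lower. On slide 1 their summed level was 76.9 to 79.1 at day 7, against 109.6 to 116 at day 0. Of 15 satellite cell and myoblast markers, 2 rose and 2 fell, with a median of −0.01. Endothelial markers had 3 of 19 higher and 3 lower. Of all features, 15.6% were called higher, so the satellite cell and endothelial counts of higher genes are near the background. The part of these cells in the mitotic levels was not tested.

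**Figure D4:**
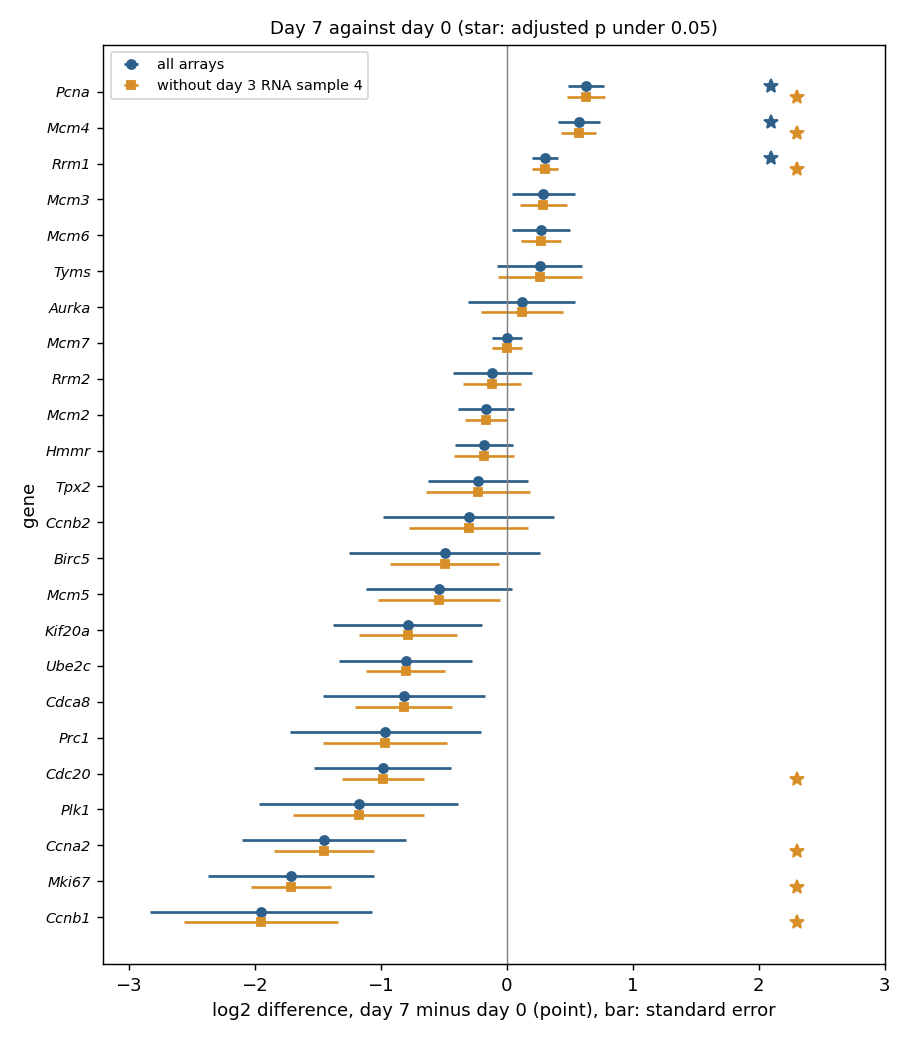
Fitted log2 difference of day 7 minus day 0 (horizontal axis) for the 24 genes that passed the filter (rows, from the highest at the top to the lowest at the bottom), with standard errors as bars, from all arrays (blue) and without day 3 RNA sample 4 (orange). Pcna, Mcm4 and Rrm1 lie above 0 and are starred in both fits, and Mki67, Ccna2, Ccnb1 and Cdc20 keep their place and are starred only without that sample, where their bars are shorter.

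Day 7 was also set against day 3, the time between them being the second part of the oxygen decrease. No cell cycle gene passed (limma), where 0.677% of all features did, and 7 of 24 had an unadjusted p under 0.05, against 15.0%. The difference was below 0 in 19 of the 24 genes, with a median of −0.68 against 0.05 over all features. Without RNA sample 4 of day 3 the median was −0.18 with 16 of 24 below 0, and again none passed, where 0.194% of all features did. Mki67 differed by −1.75 ± 0.61 with all samples (adjusted p = 0.197) and by −0.76 ± 0.33 without sample 4 (adjusted p = 0.376).

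At day 14, after the week at a steady oxygen level, no cell cycle gene differed detectably from day 0, but part of the set lay in the background of slide 2. Ube2c, Tyms, Ccnb1 and Plk1 were above background on no day 14 array, and Mcm5, Tpx2 and Kif20a on no slide 2 array. For these genes the day 14 level has only an upper bound, so an equal level was not shown. None of the 24 genes passed the threshold (limma), where 0.402% of all features did, and none had an unadjusted p under 0.05, against 20.6%. The median difference was 0.05, against 0.06 over all features, with 14 of 24 above 0. On slide 2 no gene had all day 14 arrays above all day 0 arrays, against 10.0% of all features, or all below, against 4.1%. Mki67 was at −0.23, −1.13, −0.79 and −0.71 at day 14, against −1.22, −1.06, −0.73 and −0.77 at day 0, and the groups overlapped. Its difference was 0.23 ± 0.53, with a 95% interval of −0.90 to 1.36. For Pcna the difference was 0.15 ± 0.12 and for Mcm4 0.01 ± 0.13.

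Within day 14, RNA sample 1 was the highest array of slide 2 for 13 of the 24 genes, against 19.4% of all features. Birc5 was at −0.56 in that sample, against −2.64, −2.03 and −2.43 in day 14 RNA samples 2, 3 and 4. Prc1 was at −0.98, against −2.42, −2.88 and −2.94. In both genes it was the only day 14 array above background. Myh3 was at 3.96 in the same sample, against 2.62, 2.45 and 2.11 in the others.

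Between days 14 and 7 the arrays lie on different slides, so the comparison rests on the day 0 RNA run on both. No cell cycle gene passed (limma), where 2.3% of all features did, and 4 of 24 had an unadjusted p under 0.05, against 22.1%. Mki67 differed by 1.94 ± 0.77 (adjusted p = 0.162). Without day 3 RNA sample 4 it was the one gene to pass (1.94 ± 0.37, 3.84-fold higher at day 14, adjusted p = 0.0185), where 1.96% of all features were called higher. This call has the same limit as the lower calls made at day 7 without that sample. Cdc20 differed by 1.05 ± 0.63 and Ccna2 by 1.65 ± 0.75, whereas Pcna differed by −0.48 ± 0.17 (adjusted p = 0.125) and Mcm4 by −0.56 ± 0.19 (adjusted p = 0.117).

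Probes of the same gene did not always agree. Of the 34 genes, 7 had more than 1 probe, and 4 of the 10 further probes were above background on at least 3 arrays. In day 3 RNA sample 4 the brightest probe of Tpx2 differed by −0.35 from the mean of the other day 3 samples. Its other probe, above background on 3 arrays, differed by 2.96. For Cdk1 the brightest probe differed by −0.52 and another by 3.55, with that other probe above background on 1 array. The further probe of Ube2c differed by 2.82, where the brightest differed by 2.21, and that of Cdca8 by 1.63, where the brightest differed by 2.68.

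Other genes of the same processes were counted for the setting, beside 15.6% of all features called higher and 8.15% called lower at day 7. At day 7 against day 0, of 36 measured genes of origin licensing and the replication fork, 6 rose and 2 fell, with a median of 0.20. Rpa1, of the complex that coats single-stranded DNA, rose by 0.66 ± 0.12 (adjusted p = 0.004) and the flap nuclease Fen1 by 0.69 ± 0.14 (adjusted p = 0.0049), while the polymerase subunits Pola2 (−0.96 ± 0.22) and Pold2 (−0.47 ± 0.16) fell. The primase subunit Prim1 rose at day 3 (1.17 ± 0.22, adjusted p = 0.0181), with levels of −1.58, −1.33 and −0.79 at day 3, against −2.26 and −2.41 at day 0 on slide 1. Of 16 genes of nucleotide supply and turnover, 3 rose at day 7, among them Dut (0.57 ± 0.14) and Samhd1 (0.59 ± 0.14), and 2 fell, Shmt2 (−0.60 ± 0.13) and Atic (−0.45 ± 0.14).

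The genes of G1 and of arrest were counted likewise. Of 22 measured CDK inhibitors and arrest genes, 5 rose at day 7 and none fell, including Cdkn1b, the inhibitor p27 (0.50 ± 0.10, adjusted p = 0.0049), and the antiproliferative Btg1 (0.53 ± 0.12). Of 26 G1 cyclins, kinases and E2F factors, 3 rose, among them Rb1, the brake on E2F (0.37 ± 0.09, adjusted p = 0.0151), and Lin54, of the complex that binds the CHR (0.49 ± 0.15), and none fell. Both counts of higher genes are near the 15.6% of all features called higher. Fzr1, which activates the anaphase-promoting complex in G1, fell (−0.81 ± 0.19, adjusted p = 0.0089).

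Mitotic genes outside the set were mostly too dim. Of 79 other listed mitotic genes, 35 passed the filter. At day 7, where 15.6% of all features were called higher and 8.15% lower, 4 rose, among them Ncapd3 (0.48 ± 0.10) and Ckap5 (0.59 ± 0.14), and 1 fell, Mad1l1 (−0.61 ± 0.20), with a median of −0.08. Day 3 RNA sample 4 was the highest of slide 1 for 21 of the 35, against 10.3% of all features. The median difference from the other day 3 samples was 0.80, against −0.10 over all features. Uhrf1, which maintains DNA methylation at replication, fell at day 7 (−1.65 ± 0.54, adjusted p = 0.0409), and was at −3.04, −2.83 and −2.74 at day 7, against −0.83 and −1.68 at day 0 on slide 1. Of the other 14 measured genes of replication-linked chromatin, the histone methyltransferase Ezh2 rose (0.82 ± 0.18), as did Hmgb1 (0.50 ± 0.16), and Slbp, which binds histone mRNA, fell (−0.76 ± 0.19). Of 19 measured DNA damage genes 3 rose, near the share of all features, and of 15 anaphase-promoting complex genes 6 rose and 2 fell.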

How the data were processed

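RNA of 14 soleus samples was measured on 16 Agilent 1-colour arrays. The deposited scanner files hold, per the file headers, spot intensity on a linear scale from Agilent Feature Extraction 11.0.1.1 for a design annotated on mm9, background-subtracted and spatially detrended, and not scaled to each other. A deposited table of the whole series holds intensity too, with steps not given in the sources used here, and served as an alternative. Per the labels' protocols, total RNA was extracted with an RNeasy kit and labelled with Cy3.

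Each array's 75th percentile over its 59305 spots other than controls was subtracted from log2 intensity, and spots with one probe were averaged. Outlier spots were left out. The 29479 probes that rose well above background on 3 or more of 16 arrays were kept, and genes took their brightest probe. This gave 22145 features, among which 14107 carry a gene name.

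The days were tested 2-sided in R 4.3.3 with limma 3.58.1 and statmod 1.5.0. Fixed terms were day and slide, and arrays were blocked by RNA sample as a random term (correlation of arrays of 1 RNA sample 0.448, 11 residual and 2.45 prior degrees of freedom). Each comparison had its p-values adjusted across the whole feature table (Benjamini-Hochberg), with a threshold of 0.05. The 3 differences from day 0 were also tested together (moderated F-test). A gene in the background on all arrays of a day has a fold that is a bound against the lowest signal above background on each array. Precision is limited by how many RNA samples there are. On simulated data with 100 genes changed by 2 log2 units at day 7 against day 0, among 22145 features, the fit called 86% of them, and 52% of 100 changed by 1. The changed genes were drawn at random from all features, so these shares are averages and do not hold for the mitotic genes. Standard errors at day 7 were 0.66 for Mki67 and 0.88 for Ccnb1, against 0.15 for Pcna.

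The RNA sample numbers did not pair the samples (correlations of deviations of same-numbered samples from −0.15 to 0.17). The 34 genes, the other gene lists and the motifs were chosen with earlier results of these data known. All 34 genes are named; full values are given for members past the threshold and for those ranked first by the F-test, up to 8, and of other lists up to 2 genes in each direction past the threshold in each comparison. One result is not reported here. Some genes of the printed values (macrophage, muscle and fibroblast markers, and Myh4 and Myh7) were picked after their values were seen. Alternatives covered background correction, scaling, the deposited table, the filter, the choice of probe, the slide, the replicate number and each RNA sample. The files have no mean signal column, so the normexp alternative (offset 50) used the median signal. Python 3.11.15, NumPy 2.4.6, pandas 2.3.3, SciPy 1.17.1 and Matplotlib 3.10.9 made the tables and figures.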

Additional observations from a re-analysis of the deposited data

Results flagged for a closer look

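On slide 2, where day 14 and day 0 have 4 RNA samples each, 1 sample lay far from the other 3 of its day in 4 of the genes, by the gap to its nearest neighbour as a share of the range (above Dixon's 95% critical value). In day 14 RNA sample 1, Kif11 was the highest at −3.29. In day 14 RNA sample 2, Cdk1 was the highest at −2.33. In day 14 RNA sample 3, Cks2 was the lowest at −4.17. In day 0 RNA sample 2, Aurka was the lowest at −2.77. None of the 4 values was well above background. Chance gives such a gap in about 1 in 20 groups, and it was found in 3 of 34 genes at day 14 (5.64% of all features) and in 1 of 34 at day 0 (5.16%). Groups of 3 samples (days 3 and 7) were not examined in this way, so day 3 RNA sample 4 is not among these.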

How the results depend on the processing

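Across 25 other settings, 564 values of the 8 genes described in most detail (each day against day 0) gave 524 with the same call, 28 calls lost and 12 gained. None of the called values changed sign, and 36 uncalled values did. With all samples, 3 of the 24 genes were higher and 0 lower at day 7 than at day 0, against 3458 and 1805 of 22145 features. With all slide 1 arrays alone these counts were 0 and 0, against 1253 and 840 features. Without the slide 1 arrays of day 0 they were 0 and 2 (lower Ccna2 and Ccnb1), against 1652 and 2226 features. With no slide term they were 1 (Rrm1) and 3 (Mki67, Ccna2 and Ccnb1), against 2023 and 1265 features. In the last 2 settings the day 7 background values of Ccna2 and Ccnb1 on slide 1 are set against slide 2, where background lies higher. The counts were 3 and 1 (Mki67) of only 9 genes tested when every array had to be above background, against 4074 and 1950 of 14813 features. The RNA sample number as a replicate block gave 2 higher and 1 lower, Ccna2 (−1.70, adjusted p = 0.0337), against 3668 and 1843 features. The numbers did not pair the samples. Leaving out 1 RNA sample at a time gave 0 to 3 higher and 0 to 4 lower, the 4 without day 3 RNA sample 4. It gave 0 to 1 higher without day 0 RNA sample 1 or 2 or day 7 RNA sample 1 or 2. Over all features these leave-outs called 52 to 3931 higher and 55 to 2008 lower. For day 14 against day 7, none was called in the account above. With no slide term 3 genes were higher, against 1775 features, and without the slide 1 arrays of day 0 also 3, against 2789. Normexp on the median signal gave 2 lower, against 2755 features. When every array had to be above background, 1 of 9 genes was lower, against 1006 of 14813 features. Leaving out 1 RNA sample gave 0 to 1 higher, against 3 to 465 features. For day 3 against day 0, normexp called 1 gene higher, Pcna (0.33, adjusted p = 0.0441), against 1657 of 22145 features. Rrm1 also lost its call at day 7 with quantile normalization (0.24, adjusted p = 0.0984) and in the deposited table (0.25, adjusted p = 0.093). The cause of these changes was not tested. Signal over background limits most mitotic genes: 10 of the 34 could not be compared between days.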
